A study of Saccharomyces cerevisiae with 8 samples.

Results

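The yeast strains labelled rnt1d and rnt1ts, both grown at 26 C, were compared to show which transcripts differ between the strain with the lowest level of RNT1 mRNA and a strain that keeps part of it. The comparison used 3 of the 8 arrays of the series, chosen by their labels. They were rnt1d at 26 C, with 2 arrays that the labels call biological replicates, and rnt1ts at 26 C, with 1 array. The wild type at 26 C, with 2 arrays, is given beside them as a further point of comparison. Each array was hybridised with biotin-labelled total RNA of exponentially growing Saccharomyces cerevisiae. Both a complete medium and one lacking leucine are mentioned for the growth, and the design mentions rich media, with no assignment to arrays. The sources do not spell out the 2 alleles, the mating type or the marker genes of the strains.

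The product of RNT1 is RNase III, an enzyme of the yeast nucleus that cleaves RNA stem-loops capped by a short tetraloop. It separates the snoRNAs that are transcribed together in one precursor, trims the ends of several snoRNAs and spliceosomal snRNAs, cuts the precursor of ribosomal RNA in its 3′ external spacer, and cleaves some mRNAs. Strains that lack it grow slowly and accumulate unprocessed precursors, which a probe set for the mature RNA can also detect.

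Values are MAS5 signals after quantile normalisation, and a log2 difference is the mean log2(signal + 16) of rnt1d minus that of rnt1ts. This scale understates the change of dim transcripts. A difference was called at a Benjamini-Hochberg adjusted p under 0.05 in limma over 9275 probe sets, and every adjusted p below comes from that fit. With 1 rnt1ts array, its spread was assumed to equal that of the rnt1d and wild type pairs, with 2 residual degrees of freedom. With either wild type array left out, 10 calls were left in place of 146, so nearly all calls rest on the spread of both pairs. A signal was taken as not above background when it did not exceed the brightest of 19 non-yeast control probe sets on its array, a bound of 7.10 and 8.94 in rnt1d, 10.2 in rnt1ts, and 9.32 and 8.75 in wild type. The median deposited signal ran from 31.0 to 69.5 over the 8 arrays, which were therefore brought to a common scale.

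The level of RNT1 (YMR239C, chromosome XIII) was examined first. Its signal was 1.31 and 2.03 in rnt1d, 39.8 in rnt1ts, and 181 and 149 in wild type. Both rnt1d arrays lay below the background bound, the rnt1ts array lay above it, and both wild type arrays lay higher still. RNT1 was at least 4.99-fold lower in rnt1d than in rnt1ts (fitted log2 difference -1.66, SE 0.23, adjusted p = 0.0364). That call was lost on the deposited scale (adjusted p = 0.757) and with a pseudocount of 64 (adjusted p = 0.115). It was also lost without any 1 of the 4 replicated arrays, at adjusted p between 0.105 and 0.15. At 37 C the values went against the labels, with RNT1 at 71.4 on the array labelled rnt1d and 1.26 on the array labelled rnt1ts. The 37 C arrays entered the common scale and the mean signals used for the variance trend. They also entered the mean signals that chose each gene's probe set and the brighter genes of each chromosome. With the 5 arrays at 26 C alone 143 probe sets were called, 141 of them shared with the 146.

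In the genes next to RNT1, named after their values were seen, 2 further differences were called. CUS1, which encodes a U2 snRNP protein, had signals of 41.4 and 40.3 in rnt1d, 182 in rnt1ts, and 34.5 and 39.6 in wild type, a log2 difference of -1.80 (SE 0.21, adjusted p = 0.0263). The rnt1ts array stood apart here, while rnt1d and wild type were close. YHM2, a mitochondrial carrier gene one place further along the chromosome, had signals of 187 and 166 in rnt1d, 421 in rnt1ts, and 387 and 393 in wild type. It was lower in rnt1d by the test (log2 difference -1.18, SE 0.18, adjusted p = 0.0494). DFG5 and BCH1 on the other side were not called.

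Across the array, 146 of 9275 probe sets differed (1.57%), 75 higher (0.809%) and 71 lower (0.765%) in rnt1d. With the genes of mating type and LEU2 set apart, 130 remained, 69 higher and 61 lower. By gene, with the brightest probe set for each, 107 of 5656 differed (1.89%), 57 higher (1.01%) and 50 lower (0.884%), and every one by at least 2-fold. Both rnt1d arrays lay above the rnt1ts array for 36% of all genes and below it for 40.1%. The share of calls that were higher depended on the scaling: 51.4% after quantile normalisation, 38.1% with median scaling (97 calls) and 26.8% on the deposited scale (56 calls). The median log2 difference of all probe sets was -0.11 on the deposited scale, so differences on that scale are to be read relative to it. Leaving out rnt1d replicate 1 left 43 calls and leaving out replicate 2 left 45, with 39 of the 146 in each.

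**Figure D1:**
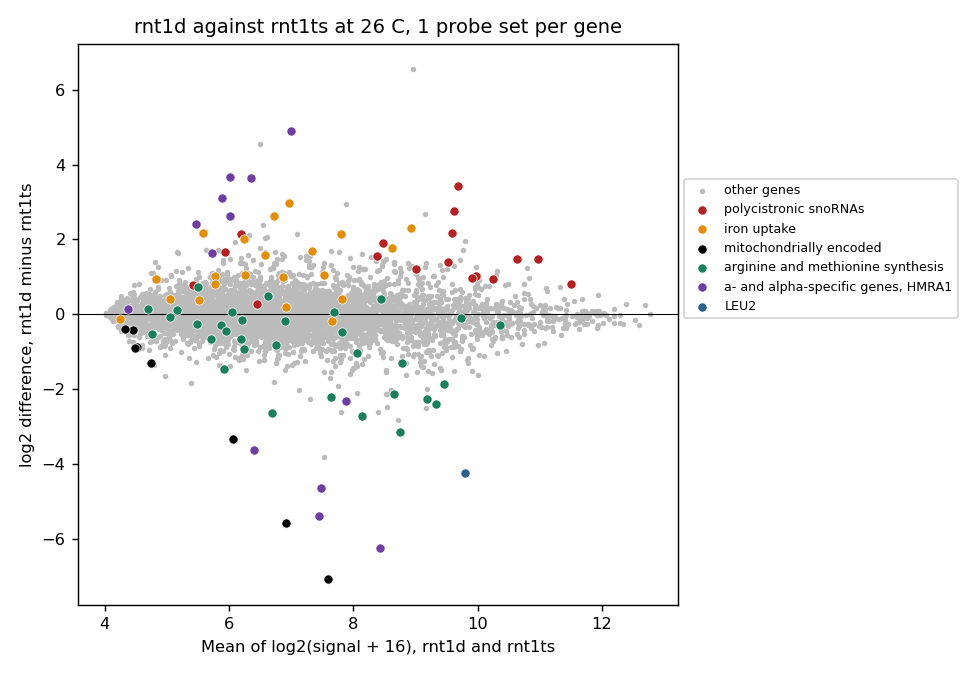
Log2 difference of rnt1d minus rnt1ts at 26 C (y axis) against the mean of log2(signal + 16) over both strains (x axis), with 1 probe set for each of 5656 genes. Grey points are genes outside the coloured groups, polycistronic snoRNAs lie between 0.27 and 3.44, and the lowest point is the mitochondrial gene OLI1 at -7.08.

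The position of rnt1ts relative to wild type differed among the called genes. Of the 51 genes that were higher in rnt1d once the mating-type genes and LEU2 were set apart, both rnt1d arrays lay above both wild type arrays for 51, against 28.9% of all genes. The rnt1ts array lay above both wild type arrays for 20 of these 51 and below both for 25, against 37.4% and 35.2% of all genes. Of the 44 lower genes, rnt1d lay below wild type for 40, against 32.2% of all genes, and rnt1ts above wild type for 33. These positions use the arrays that made the calls and are a description.

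Mating-type transcripts and LEU2 gave several of the largest differences. The a-specific genes are transcribed in cells of mating type a and the alpha-specific genes in cells of mating type alpha. Of 7 a-specific genes 5 were called higher and 0 lower in rnt1d, against 1.01% and 0.884% of all genes. Their median log2 difference was 2.64, against -0.01 over all genes. MFA2, an a-factor precursor, had signals of 828 and 558 in rnt1d, 7.47 in rnt1ts, and 1879 and 1501 in wild type. The rnt1ts array was not above background while rnt1d and wild type were, and MFA2 was at least 66.8-fold higher in rnt1d (adjusted p = 0.00306). MFA1, whose called probe set can match related transcripts and whose second probe set differed by 0.06, was at least 26.7-fold higher. STE2, the alpha-factor receptor, was at least 15.4-fold higher, BAR1, the alpha-factor protease, at least 14.2-fold, and AGA2, an agglutinin subunit, at least 8.35-fold. STE6, the a-factor exporter, differed by 1.64 (adjusted p = 0.104), and ASG7 was not above background in rnt1d or rnt1ts. The rnt1d arrays lay below both wild type arrays for 6 of the 7, against 32.2% of all genes. The number called was 3 with either rnt1d array left out and 1 with either wild type array left out.

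All 5 alpha-specific genes were called lower in rnt1d, against 0.884% of all genes, with a median of -4.63. MF(ALPHA)1, an alpha-factor precursor, had signals of 21.7 and 26.2 in rnt1d, 2988 in rnt1ts, and 33.5 and 29.8 in wild type, a log2 difference of -6.23 (SE 0.21, adjusted p = 0.000664). Rnt1d was near wild type and rnt1ts far above both. MF(ALPHA)2 differed by -5.40, AFB1, which encodes the barrier to a-factor, by -4.63, STE3, the a-factor receptor, by -3.64 and SAG1, the alpha-agglutinin, by -2.31. MF(ALPHA)2 and STE3 were above background on 1 of the 2 rnt1d arrays. HMRA1, a mating-type gene, was at least 21-fold higher in rnt1d by 1 of its 3 probe sets. None of 24 haploid-specific and pheromone pathway genes was called (median -0.05). By these markers the rnt1d and wild type arrays carried the transcripts of a cells and the rnt1ts array those of alpha cells.

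LEU2 encodes an enzyme of leucine synthesis and is a common plasmid and deletion marker. Its signal was 211 and 168 in rnt1d, 3812 in rnt1ts, and 592 and 645 in wild type. The rnt1ts array was the highest and both rnt1d arrays were the lowest. LEU2 was 18.7-fold lower in rnt1d (log2 difference -4.23, SE 0.20, adjusted p = 0.00166), and its 3 probe sets ran from -5.13 to -4.23. Its neighbours NFS1, DCC1 and BUD3 were not called, and none of 14 other genes of leucine and branched-chain amino acid synthesis was called (median -0.69, and -1.06 in the deposited values). Mating type, LEU2 and the RNT1 allele differed together between the strains, so their parts in any other difference cannot be told apart. The levels of mitochondrially encoded genes and of chromosome V genes, described below, differed between the same arrays and cannot be separated from these either.

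**Figure D2:**
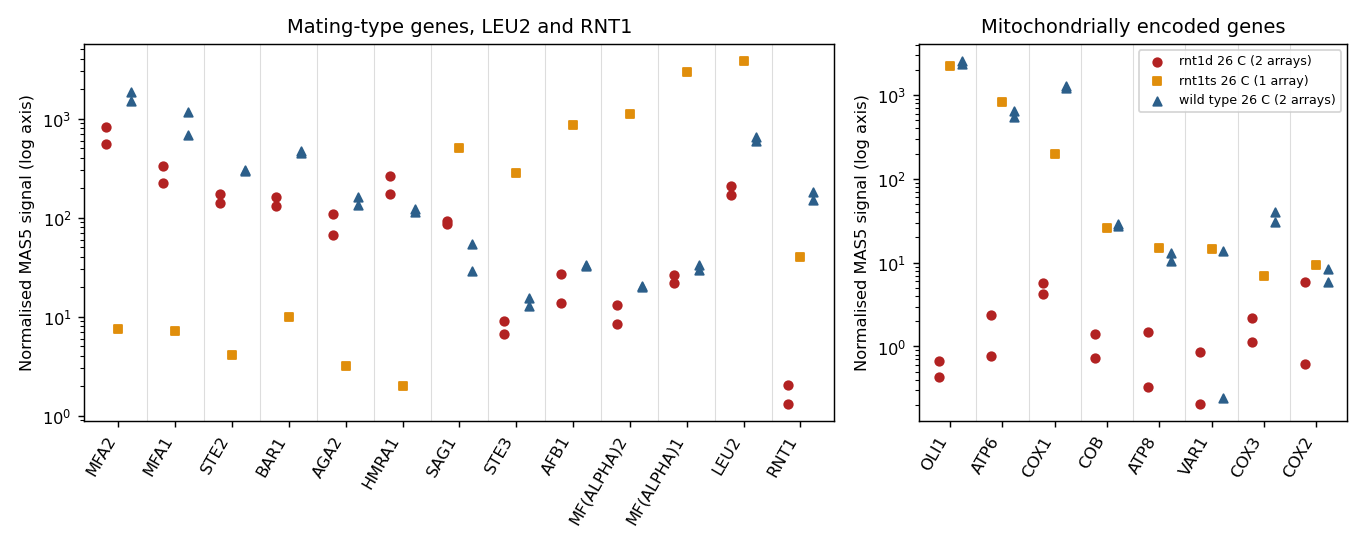
Normalised signal on each 26 C array (y axis, log scale) for mating-type genes, LEU2 and RNT1 (left) and for mitochondrially encoded genes (right). Circles are the 2 rnt1d arrays, squares the rnt1ts array and triangles the 2 wild type arrays. The rnt1ts array stands apart from both other strains for the mating-type genes, and the rnt1d arrays lie lowest for OLI1, at 0.43 and 0.68.

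Polycistronic snoRNAs, which guide the methylation of rRNA and which Rnt1 releases from a shared precursor, were higher in rnt1d than in rnt1ts. Of 17 measured, 8 were called higher and 0 lower, against 1.01% and 0.884% of all genes. Both rnt1d arrays lay above the rnt1ts array for 17 of 17, against 36% of all genes. Their median log2 difference was 1.47, with a range of 0.27 to 3.44. The median was 1.51 in replicate 1 and 1.36 in replicate 2, and with median scaling it was 1.10, on the deposited scale 0.95. The rnt1ts array itself lay above both wild type arrays for 16 of the 17, against 37.4% of all genes. Set against wild type, the list's median was 3.38 in rnt1d and 1.98 in rnt1ts. The number called was 6 after median scaling, 1 for the deposited values, 1 with either rnt1d array left out and 0 with either wild type array left out.

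The difference was largest in the cluster of SNR57, SNR55 and SNR61 on chromosome XII. SNR55 had signals of 2914 and 2488 in rnt1d, 234 in rnt1ts, and 58.0 and 34.3 in wild type, a 10.8-fold difference between the mutants (log2 difference 3.44, SE 0.28, adjusted p = 0.00764). SNR61 had 2212 and 1840 in rnt1d, 286 in rnt1ts, and 208 and 188 in wild type (log2 difference 2.75, SE 0.20, adjusted p = 0.00673). For both, the rnt1ts array lay between wild type and rnt1d, and closest to wild type for SNR61. SNR57 had 649 and 482 in rnt1d and 178 in rnt1ts, against 18.6 and 11.5 in wild type. Its difference of 1.57 was not called (adjusted p = 0.064).

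In the cluster of SNR41, SNR70 and SNR51 on chromosome XVI the order of the difference was SNR41, SNR70, SNR51. SNR41 had signals of 1650 and 1571 in rnt1d, 348 in rnt1ts, and 42.8 and 52.4 in wild type (log2 difference 2.16, SE 0.19, adjusted p = 0.00926). SNR70 had 3108 and 3588 in rnt1d, 1178 in rnt1ts, and 147 and 154 in wild type (log2 difference 1.49, adjusted p = 0.0288). SNR51 had 1315 and 1534 in rnt1d, 690 in rnt1ts, and 86.2 and 84.2 in wild type. All 3 stood in the order rnt1d, rnt1ts, wild type, but the difference of 1.02 for SNR51 was not called (adjusted p = 0.0733).

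The 7 snoRNAs of the cluster from SNR72 to SNR78 on chromosome XIII differed by 0.95 to 1.91. SNR74 had 702 and 657 in rnt1d, 168 in rnt1ts, and 8.15 and 13.9 in wild type (log2 difference 1.91, SE 0.22, adjusted p = 0.0234). SNR78 had 101 and 85.2 in rnt1d, 18.2 in rnt1ts, and 2.32 and 2.64 in wild type, where it was not above background (log2 difference 1.67, adjusted p = 0.0322). SNR77, the third called member, had 2713 and 2572 in rnt1d, 944 in rnt1ts, and 299 and 237 in wild type (log2 difference 1.47, adjusted p = 0.0371). Again both mutants lay above wild type and rnt1d above rnt1ts. SNR72, SNR73, SNR75 and SNR76 differed by 1.39, 0.95, 0.98 and 1.22 and were not called.

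The 2 pairs were mixed. SNR53 had 126 and 153 in rnt1d and 18.8 in rnt1ts, against 11.7 and 12.9 in wild type (log2 difference 2.15, SE 0.23, adjusted p = 0.0184). Its partner SNR67 had 3630 and 4069 in rnt1d and 2175 in rnt1ts, against 579 and 541 in wild type, and the difference of 0.82 was not called (adjusted p = 0.104). Both lie on chromosome V, whose genes were shifted as a whole, as described below. SNR190, which had 37.8 and 42.8 in rnt1d and 16.4 in rnt1ts, was not above background in wild type, and SNR128 had 89.9 and 70.9 in rnt1d, 63.8 in rnt1ts, and 68.4 and 56.5 in wild type. SNR128 had the smallest difference of the 17, and its rnt1ts signal lay between the wild type signals.

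**Figure D3:**
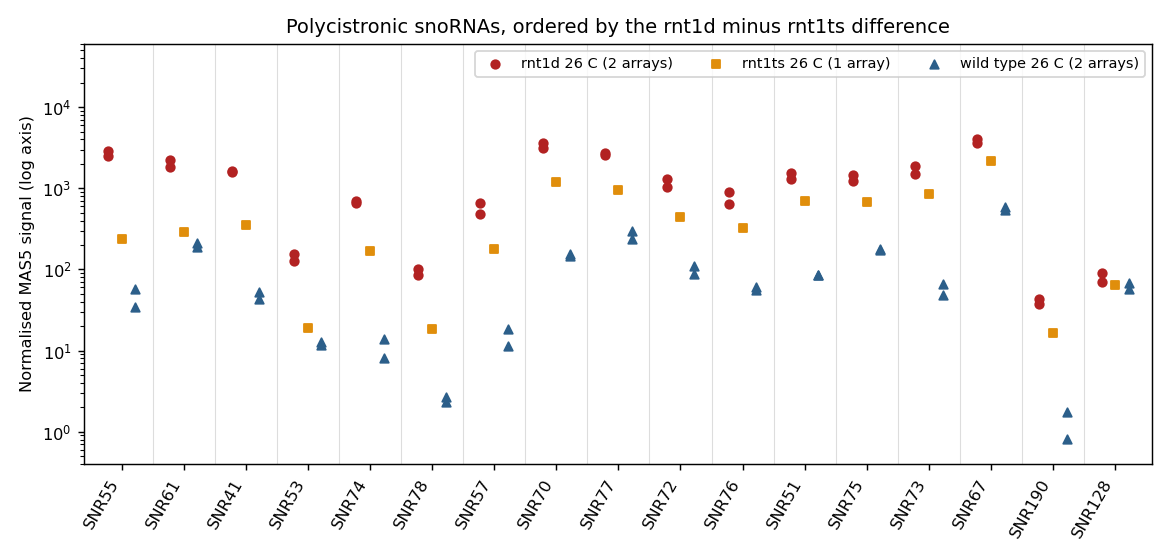
Normalised signal (y axis, log scale) of the 17 polycistronic snoRNAs on each 26 C array, ordered from the largest to the smallest log2 difference of rnt1d minus rnt1ts. Circles are the 2 rnt1d arrays, squares the rnt1ts array and triangles the 2 wild type arrays. The circles lie above the square for all 17, from a difference of 3.44 for SNR55 to 0.27 for SNR128.

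The snoRNAs that are transcribed singly did not differ as a group between the mutants. Of 19 other box C/D snoRNAs 2 were called higher and 0 lower, against 1.01% and 0.884% of all genes. Their median was 0.04, and -0.09 on the deposited scale. Against wild type the list's median was 0.54 in rnt1d and 0.67 in rnt1ts. The rnt1d arrays lay above both wild type arrays for 12 and the rnt1ts array for 15, against 28.9% and 37.4% of all genes. SNR64 had 203 and 164 in rnt1d, 31.7 in rnt1ts, and 3.96 and 1.55 in wild type (log2 difference 2.06, SE 0.24, adjusted p = 0.025). SNR50 had 468 and 486 in rnt1d, 145 in rnt1ts, and 29.7 and 41.1 in wild type (log2 difference 1.62, SE 0.22, adjusted p = 0.0352). For both, the mutants lay above wild type, with rnt1d the higher. Others ran the opposite way without a call: SNR52 had 140 and 115 in rnt1d but 268 in rnt1ts, with 29.9 and 19.3 in wild type, and SNR13 differed by -1.48 and SNR66 by -1.34. None of 16 box H/ACA snoRNAs, which guide pseudouridylation, was called (median -0.25), and none of 5 intronic snoRNAs (median -0.09) or 8 of their host genes (median -0.29). The host gene median was -0.77 with median scaling and -0.92 in the deposited values, and the intronic snoRNA median was 0.15 in rnt1d replicate 1 and -0.49 in replicate 2.

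Among 6 measured snRNAs and other stable RNAs, 0 were called, with a median of 0.45. SNR19, the U1 RNA, had signals of 348 and 257 in rnt1d, 111 in rnt1ts, and 18.1 and 12.3 in wild type, and SNR14, the U4 RNA, had 158 and 95.0 in rnt1d, 34.8 in rnt1ts, and 24.3 and 18.9 in wild type. The 2 rnt1d arrays were the highest for both RNAs and the rnt1ts array came next, but the differences of 1.31 and 1.45 did not pass the test (adjusted p = 0.085 and 0.104). SNR7-L, the long form of U5, differed by 0.71 (adjusted p = 0.174).

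The 25S rRNA probe sets disagreed with each other. One for RDN25-1 had 5069 and 4510 in rnt1d, 35.5 in rnt1ts, and 33.3 and 19.3 in wild type, the highest log2 difference of all genes (6.54, SE 0.25, adjusted p = 0.000785). Here rnt1ts lay at the wild type level. A second RDN25-1 probe set differed by -0.18. Among 7 probe sets for RDN37-1, the 35S precursor gene, named after their values were seen, 2 were called higher. One had 1914 and 1610 in rnt1d, 3.92 in rnt1ts, and 7.08 and 1.03 in wild type and was at least 172-fold higher, and the other had 72.7 and 52.8 in rnt1d, 6.11 in rnt1ts, and 3.88 and 4.03 in wild type and was at least 6.08-fold higher (adjusted p = 0.0319). The other 5 ran from -0.57 to 0.15 and were not called. The stretch of the rDNA repeat that each probe set reads was not analysed here, and all can match several copies.

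Of 12 measured mRNAs that have been reported as Rnt1 substrates, 2 were called higher and 1 lower, against 1.01% and 0.884% of all genes. Their median was 0.25, and 0.03 in the deposited values. ARN2 and FIT2 were higher and are described, and counted again, with the iron genes. HXT1, a low-affinity glucose transporter, was lower, with 231 and 219 in rnt1d, 1347 in rnt1ts, and 705 and 511 in wild type (log2 difference -2.50, SE 0.24, adjusted p = 0.0123). It stood in the order rnt1ts, wild type, rnt1d. MIG2, a repressor of glucose-repressed genes, differed by 0.66, and NAB2, BDF2, YTA6 and HSL1 by 0.31, -0.12, 0.13 and -0.01, none of them called.

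Siderophore uptake genes were higher in rnt1d than in rnt1ts, while rnt1ts lay near wild type. These genes are transcribed by the iron-responsive factors Aft1 and Aft2. All but TIS11, which the list also holds, serve to retain or take up iron bound to siderophores. Of 8, 6 were called higher and 0 lower, against 1.01% and 0.884% of all genes. Both rnt1d arrays lay above the rnt1ts array for 8 of 8, against 36% of all genes, with a median of 2.09. Against wild type the median was 1.95 in rnt1d and 0.04 in rnt1ts. The median was 2.02 with median scaling and 1.91 on the deposited scale. The number called was 4 after median scaling, 2 for the deposited values, 3 without rnt1d replicate 1, 1 without rnt1d replicate 2 and 0 with either wild type array left out.

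SIT1, a siderophore transporter on chromosome V, had signals of 306 and 371 in rnt1d, 28.7 in rnt1ts, and 32.6 and 40.0 in wild type (log2 difference 2.98, SE 0.23, adjusted p = 0.00764). FIT2 had 213 and 290 in rnt1d, 26.6 in rnt1ts, and 23.0 and 22.1 in wild type (log2 difference 2.64, SE 0.25, adjusted p = 0.0124). FIT3 had 990 and 1165 in rnt1d, 203 in rnt1ts, and 183 and 205 in wild type (log2 difference 2.31, SE 0.20, adjusted p = 0.00904). In each of these the rnt1ts array lay within or close to the wild type range, and both rnt1d arrays lay apart. FIT2 and FIT3 encode cell wall mannoproteins that help to retain siderophores. The transporter genes ARN1, ENB1 and ARN2 differed by 2.00, 1.69 and 1.60 and were called. TIS11, which promotes the decay of mRNAs for iron-using proteins, was at 61.4 and 118 in rnt1d and not above background in rnt1ts, at least 8.34-fold higher, and missed the threshold (adjusted p = 0.0608). FIT1 differed by 1.05 (adjusted p = 0.142).

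Of 13 genes of reductive iron uptake, in which ferric iron is reduced at the cell surface and imported, FTR1 was called higher and 0 were lower (median 0.81). Over all genes the shares called were 1.01% higher and 0.884% lower. FTR1, the high-affinity permease on chromosome V, had 449 and 454 in rnt1d, 89.5 in rnt1ts, and 101 and 156 in wild type (log2 difference 2.15, SE 0.27, adjusted p = 0.0302). FET3, its multicopper oxidase partner, had 756 and 675 in rnt1d, 198 in rnt1ts, and 149 and 318 in wild type, a wide wild type pair, and was not called (log2 difference 1.77, adjusted p = 0.116). Both rnt1d arrays lay above the other 3 for both genes. None of 11 genes of vacuolar and mitochondrial iron handling was called (median 0.50, and 0.21 in the deposited values). Over the 32 measured iron genes together 7 were called higher and 0 lower, against 1.01% and 0.884% of all genes. These 7 are the 6 siderophore uptake genes already described and FTR1. Both rnt1d arrays lay above rnt1ts for 26 of the 32, against 36% of all genes.

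**Figure D4:**
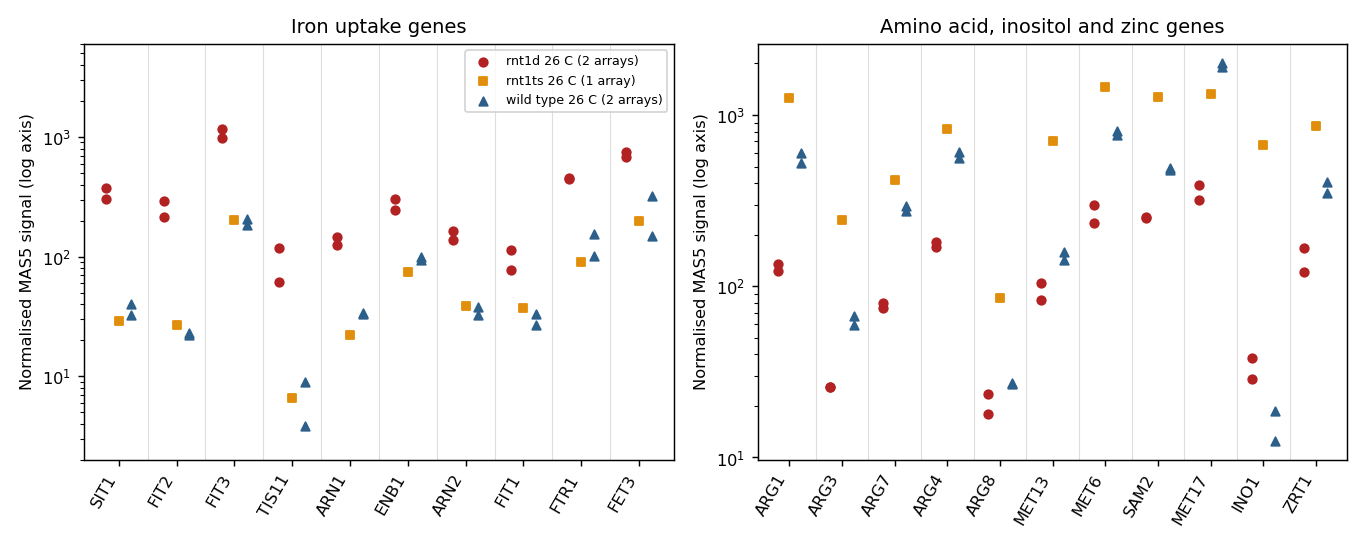
Normalised signal on each 26 C array (y axis, log scale) for iron uptake genes (left) and for genes of arginine, methionine, inositol and zinc metabolism (right). Circles are the 2 rnt1d arrays, squares the rnt1ts array and triangles the 2 wild type arrays. For SIT1 the rnt1d arrays lie at 306 and 371 and the others at 28.7 to 40.0, and for ARG1 the rnt1d arrays lie at 123 and 135 with the rnt1ts array at 1260.

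Of 8 measured genes that mitochondrial DNA encodes, 0 had a signal above background on either rnt1d array, and 6 had one on the rnt1ts array. Of the 8 genes 4 were called lower and 0 higher, against 0.884% and 1.01% of all genes. Both rnt1d arrays lay below the rnt1ts array for 8 of 8 (median -1.09), against 40.1% of all genes. With either wild type array left out 2 were called. OLI1, a proton-channel subunit of the ATP synthase, had signals of 0.43 and 0.68 in rnt1d, 2224 in rnt1ts, and 2353 and 2542 in wild type, at least 279-fold lower in rnt1d (adjusted p = 0.000269). ATP6 had 2.39 and 0.76 in rnt1d, 822 in rnt1ts, and 541 and 647 in wild type, at least 103-fold lower (adjusted p = 0.000785). COX1, a cytochrome oxidase subunit, had 4.28 and 5.73 in rnt1d, 196 in rnt1ts, and 1212 and 1288 in wild type, at least 24.6-fold lower (adjusted p = 0.00306). The rnt1ts array was at the wild type level for OLI1 but below it for this COX1 probe set.

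All 3 COX1 probe sets were called lower, at -4.66 to -3.33, and in the other 2 the rnt1ts array lay above wild type. COB, which encodes cytochrome b, was at least 3.26-fold lower (adjusted p = 0.0322), and its second probe set differed by -0.77 and was not called. A second OLI1 probe set differed by 0.09 and was at background throughout. COX2 and COX3 were not above background in rnt1d or rnt1ts, and ATP8 and VAR1 were near it in rnt1ts, at 14.9 and 14.6.

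Nuclear genes of the respiratory chain were lower in rnt1d as well. Of 36, 9 were called lower and 0 higher, against 0.884% and 1.01% of all genes. Both rnt1d arrays lay below rnt1ts for 32 of the 36, against 40.1% of all genes. Their median was -0.95, with median scaling -1.15 and on the deposited scale -1.29. The number called was 0 on the deposited scale, 1 without rnt1d replicate 1, and 0 without rnt1d replicate 2 or with either wild type array left out. The rnt1ts array lay above both wild type arrays for 33 of the 36, against 37.4% of all genes. The list's median against wild type was -0.70 in rnt1d and 0.32 in rnt1ts. COX4, a cytochrome oxidase subunit, had 167 and 153 in rnt1d, 749 in rnt1ts, and 588 and 664 in wild type (log2 difference -2.12, SE 0.19, adjusted p = 0.00926). The ATP synthase genes ATP1, ATP2, ATP3, ATP16 and ATP17 differed by -1.57 to -1.43, COR1 and QCR2 of complex III by -1.54 and -1.29, and SDH1, the flavoprotein of succinate dehydrogenase, by -1.45. CYC7, the minor cytochrome c gene on chromosome V, ran the other way, at 159 and 220 in rnt1d and 52.6 in rnt1ts, which was not called (log2 difference 1.57, adjusted p = 0.0734).

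Genes of amino acid synthesis were among the most strongly lowered in rnt1d. Of 10 arginine genes 5 were called lower and 0 higher (median -1.20), against 0.884% and 1.01% of all genes. ARG1, argininosuccinate synthase, had 123 and 135 in rnt1d, 1260 in rnt1ts, and 598 and 525 in wild type, 8.82-fold lower in rnt1d (log2 difference -3.14, SE 0.19, adjusted p = 0.00306). ARG3 had 25.7 and 25.6 in rnt1d, 243 in rnt1ts, and 66.8 and 59.4 in wild type (log2 difference -2.63, SE 0.21, adjusted p = 0.00764). For both genes rnt1ts lay above and rnt1d below wild type. ARG7, ARG4 and ARG8 differed by -2.21, -2.14 and -1.46 and were called. The number called was 2 on the deposited scale, 3 with either rnt1d array left out and 0 with either wild type array left out.

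Of 22 genes of sulfate assimilation and methionine synthesis 4 were called lower and 0 higher (median -0.37, and -0.62 in the deposited values), and 0 were called with either wild type array left out. MET13, a methylenetetrahydrofolate reductase, had 83.0 and 105 in rnt1d, 708 in rnt1ts, and 158 and 141 in wild type (log2 difference -2.73, SE 0.21, adjusted p = 0.00764). MET6, methionine synthase, had 234 and 296 in rnt1d, 1462 in rnt1ts, and 766 and 808 in wild type (log2 difference -2.40, SE 0.21, adjusted p = 0.00904). SAM2, which makes S-adenosylmethionine, had 253 and 250 in rnt1d, 1265 in rnt1ts, and 488 and 478 in wild type (log2 difference -2.26). In these 3 the rnt1ts array was the highest of the 5. MET17 had 392 and 317 in rnt1d, 1333 in rnt1ts, and 1914 and 2014 in wild type (log2 difference -1.87), and there both mutants lay below wild type. Over the 22 genes the rnt1ts array lay below both wild type arrays for 17 and above both for 4, against 35.2% and 37.4% of all genes. Both rnt1d arrays lay below both wild type arrays for 22 of the 22, against 32.2% of all genes. Among 22 other Gcn4 targets HOM2 was called lower (-1.51). Over all genes the share called lower was 0.884%. The medium of each array is unknown, so medium and strain cannot be told apart.

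INO1, the enzyme that makes inositol phosphate, stood out for the rnt1ts array. It had 38.2 and 28.6 in rnt1d, 672 in rnt1ts, and 18.6 and 12.5 in wild type, 14.0-fold lower in rnt1d (log2 difference -3.81, SE 0.25, adjusted p = 0.00425). The rnt1d arrays lay slightly above wild type. Of 17 inositol and phospholipid genes INO1 and PSD1 (-1.28) were the 2 called lower, against 0.884% of all genes. The rnt1ts array lay above both wild type arrays for 16 of these genes, against 37.4% of all genes. The list's median difference between the mutants was -0.79, with -0.52 in rnt1d replicate 1, -1.06 in replicate 2 and -1.22 in the deposited values. ZRT1, the high-affinity zinc transporter, had 122 and 167 in rnt1d, 863 in rnt1ts, and 404 and 349 in wild type (log2 difference -2.47, SE 0.24, adjusted p = 0.0124). It was called lower by 3 of its 4 probe sets and was the only one of 11 zinc genes called, against 1.89% of all genes.

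No phosphate gene passed the test between the mutants. Of 15, 0 were called, with a median of -0.29 that was -0.53 on the deposited scale, while against wild type the median was -1.68 in rnt1d and -1.57 in rnt1ts. PHO5, a secreted acid phosphatase, had 43.5 and 70.5 in rnt1d, 185 in rnt1ts, and 1506 and 1484 in wild type (log2 difference between the mutants -1.48, adjusted p = 0.0683). Both mutants were far below wild type. PHO84, the high-affinity phosphate transporter, had 40.2 and 373 in rnt1d, 321 in rnt1ts, and 2941 and 2959 in wild type. Its 2 rnt1d arrays differed so much that the SE of the log2 difference was 1.02. PHO3, another acid phosphatase gene, had 740 and 415 in rnt1d, 1603 in rnt1ts, and 1473 and 1536 in wild type (log2 difference -1.50, adjusted p = 0.107). Here rnt1ts lay near wild type and both rnt1d arrays below it. VTC1, of the polyphosphate synthesis complex and on chromosome V, had 1272 and 1547 in rnt1d, 740 in rnt1ts, and 2070 and 2412 in wild type (log2 difference 0.91, adjusted p = 0.113). PHO84 was chosen for mention after its values were seen.

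The calls among stress, wall and ribosome genes are to be read against 1.89% of all genes called, 1.01% higher and 0.884% lower. SPI1, a cell wall protein on chromosome V, had 485 and 834 in rnt1d, 69.2 in rnt1ts, and 66.9 and 32.1 in wild type (log2 difference 2.94, SE 0.43, adjusted p = 0.0439), and CWP1, a wall mannoprotein, differed by -1.62. These were the 2 called of 27 cell wall genes, whose median was 0.17 and -0.40 on the deposited scale. HSP30, a plasma membrane heat shock protein, was at least 8.85-fold higher in rnt1d and the only one of 26 heat shock genes called, with a list median of 0.32 and -0.06 on the deposited scale. GPD1, which makes glycerol 3-phosphate, was called lower (log2 difference -2.82, SE 0.43, adjusted p = 0.0464) among 27 general stress genes. Of 58 ribosomal protein genes RPL9B and RPL22B were called lower (-2.10 and -1.33), the first from a probe set that can match its paralog. Both rnt1d arrays lay below rnt1ts for 47 of these 58, against 40.1% of all genes. Their median was -0.25, and -0.66 with median scaling and -0.81 in the deposited values. None of 34 snoRNP and ribosome assembly genes and none of 34 nuclear RNA processing genes was called, with medians of -0.29 and -0.01. The snoRNP median was -0.01 in rnt1d replicate 1 and -0.59 in replicate 2, and -0.57 in the deposited values.

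Further single calls were spread over other lists. PCL1, a G1 cyclin, was 3.15-fold higher, with 355 and 384 in rnt1d, 106 in rnt1ts, and 111 and 118 in wild type (log2 difference 1.65, SE 0.19, adjusted p = 0.0234). MIG3, a transcriptional regulator, and RNR1, the large subunit of ribonucleotide reductase, both on chromosome V, were higher by 1.59 and 1.46. YNL134C, an oxidoreductase gene, was lower, with 107 and 137 in rnt1d, 823 in rnt1ts, and 704 and 867 in wild type (log2 difference -2.61, SE 0.23, adjusted p = 0.00926). For PCL1 and YNL134C rnt1ts was at the wild type level. Outside the lists, YAR068W, a gene of unknown role, was at least 41.3-fold higher, and DPI8 and YJL213W were higher by 2.68 and 2.02.

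Genes of chromosome V were shifted upward in rnt1d as a group. The split by chromosome was made after the values were seen and has no test. Of its 267 measured genes 23 were called higher and 1, MET6, lower, whereas of 5370 genes of the other nuclear chromosomes 34 were called higher and 45 lower. Among the 166 with a mean signal above the median of all genes, the median log2 difference was 0.73, with the middle 50% of genes between 0.31 and 1.08. Both rnt1d arrays lay above the rnt1ts array for 142 of these 166 genes (85.5%). On the other nuclear chromosomes the share was 32.9% of the 2659 genes above the same median. The medians of the other 15 nuclear chromosomes lay between -0.17 and 0.03 over both rnt1d arrays, and for single arrays between -0.32 for chromosome X and 0.25 for chromosome I. The running median over 11 neighbouring genes stayed above 0 in 156 of 156 windows, from 0.29 to 1.17. The shift was spread along the chromosome. The median of these genes was 0.57 with median scaling and 0.44 on the deposited scale, where the median of all probe sets was itself -0.11.

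Against the wild type mean, the chromosome V median was 0.75 and 0.70 in the rnt1d arrays and -0.02 in the rnt1ts array. So the rnt1d arrays carried the shift and rnt1ts did not. Of the genes called higher there, COX15, a heme A synthesis gene, had 1676 and 1462 in rnt1d, 467 in rnt1ts, and 569 and 432 in wild type (log2 difference 1.71, SE 0.23, adjusted p = 0.0336). BUR6, a subunit of a transcription regulator, had 478 and 545 in rnt1d, 167 in rnt1ts, and 157 and 155 in wild type (log2 difference 1.53). UBP5, a ubiquitin protease gene, had 380 and 312 in rnt1d, 95.4 in rnt1ts, and 88.3 and 91.4 in wild type (log2 difference 1.69). These 3 were named after their values were seen, and each had rnt1ts at or near the wild type level.

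Several genes named above lie on chromosome V: SIT1, FTR1, SPI1, MIG3, RNR1, SNR53, SNR67, SNR14, SNR52, CYC7, VTC1 and MET6. The part of the chromosome-wide shift in their differences was not tested. Without chromosome V the siderophore genes had a median of 2.00, the polycistronic snoRNAs one of 1.47 and the nuclear respiratory genes one of -1.01. Without it 121 probe sets were called, 51 higher and 70 lower. With the mating-type genes and LEU2 also set apart, 105 were called, 45 higher and 60 lower.

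**Figure D5:**
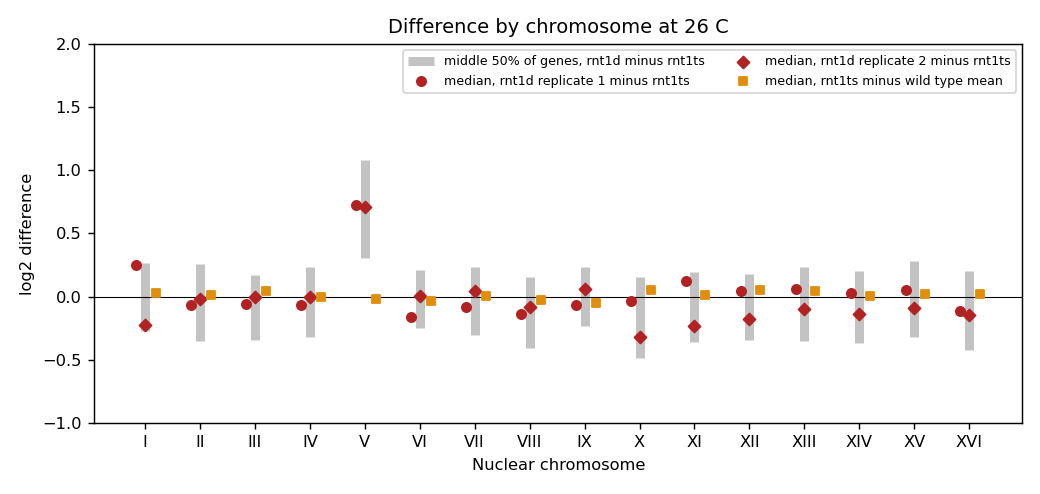
Log2 differences (y axis) by nuclear chromosome (x axis) for genes with a mean signal above the median. Grey bars span the middle 50% of genes for rnt1d minus rnt1ts, circles and diamonds are the medians of rnt1d replicates 1 and 2 minus rnt1ts, and squares the medians of rnt1ts minus the wild type mean. Chromosome V lies at 0.73 and 0.71 in the replicates, and the other chromosomes lie between -0.32 (chromosome X, replicate 2) and 0.25 (chromosome I, replicate 1).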

How the data were processed

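Transcript levels were measured on 8 Affymetrix arrays, 1 per sample. What the authors deposited is an intensity for each probe set on a linear scale, from MAS5 according to the submitters' processing notes. No version or target intensity was found. The arrays differed in overall brightness and were quantile-normalised over all 9335 probe sets. Signals were tested as log2(signal + 16) in limma 3.58.1 (R 4.3.3) with 6 group means, a mean-variance trend and two-sided tests, adjusted over the 9275 probe sets that are not controls. The median prior degrees of freedom were 3.76. Of these probe sets 6504 name 1 gene, 328 several and 2443 none. All 6504 matched a table of assembly R64, and a gene's brightest probe set represents it. Sequences of the snoRNAs and probe sets were not used here. On simulated data for this comparison, over 9275 probe sets with 50 changed at each size, 34% of log2 changes of 1 and 98% of changes of 2 were recovered, with 4 false calls. The changed probe sets all had a mean signal above the median, and each probe set was given the same normal spread on every array. The simulation therefore cannot speak for dim probe sets, or for an rnt1ts spread unlike that of the pairs. The members, the 37 gene lists and the tests were chosen with earlier results of these data known. Genes named are RNT1, LEU2, the 15 highest and 15 lowest called genes with and without the mating-type genes and LEU2, up to 4 called members per list or 3 with the smallest p where none was called, and any member of 4 lists (polycistronic snoRNAs, a-specific, alpha-specific and mitochondrially encoded genes). Other genes named were chosen after their values were seen. Alternatives were the deposited scale, median scaling, the 26 C arrays alone, pseudocounts of 1 and 64, filters at the 25th and 50th percentile, no variance trend, leaving out each replicated array, and, chosen after seeing the data, leaving out chromosome V. The number of arrays limits the precision.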

Additional observations from a re-analysis of the deposited data

Results flagged for a closer look

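For 7 results the difference of rnt1d minus rnt1ts had the opposite sign on the arrays labelled as these strains at 37 C, and 1 of them, that of polycistronic snoRNAs, was close to 0 there. None of these changes was tested, since each strain has 1 array at 37 C. The RNT1 signals of the 37 C mutant arrays go against their labels. On the array labelled rnt1ts OLI1 was at 0.52, MFA2 at 921 and MF(ALPHA)1 at 23.2, each near the rnt1d arrays at 26 C. On the array labelled rnt1d these were at 2100, 40.9 and 1957, nearer the rnt1ts array at 26 C. MF(ALPHA)2 and SAG1 did not follow, at 12.6 and 87.3 on the array labelled rnt1ts and 13.4 and 69.7 on the other. Neither an exchange of labels nor an effect of temperature was tested. The RNT1 difference of rnt1d minus rnt1ts was 2.34 at 37 C, and -1.69 and -1.63 for the 2 rnt1d arrays at 26 C. The median of polycistronic snoRNAs was -0.047 at 37 C, and 1.51 and 1.36 at 26 C. That of siderophore uptake genes was -1.43 at 37 C, and 1.84 and 2.26 at 26 C. The a-specific genes had -1.83 at 37 C, and 2.51 and 2.77 at 26 C, and the alpha-specific genes 1.90 at 37 C, and -4.89 and -4.37 at 26 C. The mitochondrially encoded genes had 1.04 at 37 C, and -1.09 and -1.12 at 26 C. Chromosome V had -0.68 at 37 C, and 0.73 and 0.71 at 26 C. Against the wild type mean at 26 C, the chromosome V median was -0.01 on the array labelled rnt1d at 37 C and 0.69 on the array labelled rnt1ts at 37 C.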

How the results depend on the processing

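With 2 residual degrees of freedom and 1 rnt1ts array, few settings left the counts where they were. The main counts were 146 probe sets, 75 higher and 71 lower, 130 with the mating-type genes and LEU2 set apart, 8 polycistronic snoRNAs, 6 siderophore genes, a chromosome V median of 0.73 and an RNT1 difference of -1.66. The deposited values, not rescaled, gave 56 calls, of which 15 higher and 41 lower, 43 with those genes set apart, with 1 polycistronic snoRNA and 2 siderophore genes, a chromosome V median of 0.44 and an RNT1 difference of -1.78 (limma, adjusted p = 0.757). Median scaling gave 97 calls, 37 of them higher, 81 set apart and a chromosome V median of 0.57. A filter at the 25th percentile of signal gave 376 calls, 214 higher and 162 lower, 356 set apart and 14 polycistronic snoRNAs. At the 50th percentile these were 337, 194, 143, 317 and 13. The chromosome V median was 0.75 with the 26 C arrays alone, 0.78 with a pseudocount of 1 and 0.61 with a pseudocount of 64, where RNT1 differed by -0.66 (limma, adjusted p = 0.115). Leaving out 1 replicated array gave between 10 and 45 calls, 3 to 15 higher and 7 to 31 lower, 5 to 33 set apart, 0 to 1 polycistronic snoRNAs, 0 to 3 siderophore genes, a chromosome V median of 0.71 to 0.73 and an RNT1 difference of -1.69 to -1.63. The filters test fewer probe sets and leaving out an array leaves fewer arrays, but the cause of the changed counts was not tested for any setting. Of 63 called genes that the naming rule covers besides RNT1, 24 were called both without rnt1d replicate 1 and without rnt1d replicate 2, and 25 on the deposited scale, with median scaling and with the 26 C arrays alone. Of the 112 genes that the naming rule covers, RNT1 included, 0 changed sign wherever an alternative gave a value, but dim genes have none under the filters, and genes named outside the rule were not followed: DFG5, not called, was 0.24 in rnt1d replicate 1 and -0.12 in replicate 2. No paired analysis was possible because rnt1ts at 26 C has 1 array with no replicate number, so the groups share fewer than 2 numbers. MAS5 signals near the background bound limit what can be said of dim transcripts.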
